A study of Mus musculus with 2 samples.

Results

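The matricellular genes are 10 genes for secreted proteins that sit in the extracellular matrix without building it: the thrombospondins Thbs1, Thbs2 and Thbs3, the tenascin Tnc, the FAS1-domain proteins periostin (Postn) and Tgfbi, osteopontin (Spp1), the collagen-binding Sparc and its relative Sparcl1, and Ecm1. They were chosen by symbol, as non-structural matrix proteins outside the CCN family, with earlier results of these data known. All 10 were found among the 52329 distinct gene symbols of the deposited table. The table held 2 RNA-seq libraries of primary pericytes, the mural cells of small vessels, taken from tumours of C57BL/6 mice. The first group was Cd248 null (labelled as the knockout type) with 1 library, and the second was Cd248 heterozygote with 1 library, so the cells of the second group still carried a working copy and no wild-type cells were compared. Both came from cells purified by flow sorting, plated on a gelatin coating and taken between passages 10 and 12. The sources used here do not give the tumour model, the sorting markers, the number of animals behind each culture or the part of Cd248 that was removed.

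Matricellular proteins tune how cells respond to their matrix. They bind collagen or fibronectin on one side and receptors such as integrins, CD36, CD47 or CD44 on the other, and several change the supply of growth factors, as thrombospondin 1 does when it activates latent TGF-beta. In tumour vessels and stroma the family is known for opposed roles: thrombospondins 1 and 2 restrain endothelial growth, while tenascin C, periostin and osteopontin are abundant in reactive stroma and wounds.

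Values are FPKM as the authors deposited them, in which a read count is scaled to transcript length and library size. With 1 library per genotype no test between genotypes was possible, no p-value is given, and no difference below has a replicate check. Intervals are 95% counting intervals from the whole reads behind each FPKM value. They hold counting error alone: the reads carry no molecular identifiers, so copies of 1 molecule can be counted repeatedly, and the spread between cultures is unknown. The totals behind the FPKM values were 19786203 reads in null cells and 23982269 in heterozygous cells. The data columns carry codes that do not repeat the labels, and the code ending in N was read as null. Cd248 (endosialin), the targeted gene, had 3 reads in the library read as null and 1288 in the library read as heterozygote, 354-fold lower by FPKM with a counting interval of 121-fold to 1720-fold.

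The labelled cell type was checked against its markers, which were partly present. The 13 pericyte markers summed to an FPKM of 896 in null cells and 1472 in heterozygous cells. Of 8 compared, 1 was past 2-fold higher in null cells, none past 2-fold lower and 7 within 2-fold. Their median log2 ratio was -0.003. The higher one was Pdgfrb (57.3 in null and 8.25 in heterozygous cells), while Acta2 stood at 726 in null and 1367 in heterozygous cells. The defining markers Rgs5, Kcnj8 and Abcc9 had at most 18 reads in either. All 9 mesothelial markers compared, of 10 listed, were lower in null cells, where the list summed to an FPKM of 17.5 against 1212 in heterozygous cells. Of the 10, Lrrn4, Muc16, Krt8 and Gpm6a were listed at 0 in null cells. Fibroblast markers summed to 3984 in null cells and 2602 in heterozygous cells. Most of each sum was Col1a1, at 2779 in null and 2024 in heterozygous cells, which lay within 2-fold. On the log2(FPKM + 1) scale used below, 2 of 9 compared were past 2-fold higher in null cells and 4 past 2-fold lower. The 10 endothelial markers summed to 2.31 in null cells and 88.5 in heterozygous cells. The 2 of them compared were both lower, Esam (0.201 in null and 64.0 in heterozygous cells) and Flt4 (1.55 in null and 23.5 in heterozygous cells), while Cldn5, Emcn and Tie1 were listed at 0 in both libraries. The 7 epithelial markers summed to 2.83 in null cells and 15.3 in heterozygous cells. Of 3 compared, Krt7 and Krt14 were past 2-fold lower and Muc1 past 2-fold higher, and Epcam and Cldn4 were listed at 0 in both. The 8 myeloid markers summed to 24.2 in null cells and 16.4 in heterozygous cells. Of 4 compared, Lyz2 and Csf1r were past 2-fold higher and none past 2-fold lower, and Adgre1, Itgam and C1qa were listed at 0 in both. Schwann cell markers summed to 5.22 in null cells and 36.2 in heterozygous cells, and bone and cartilage markers to 11.2 in null cells and 4.74 in heterozygous cells. Over all genes compared, 6.84% were past 2-fold higher in null cells and 6.88% past 2-fold lower. In bulk libraries fewer cells of a type and less RNA per cell cannot be told apart. The part of these markers in the differences of the matricellular genes was not tested.

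Tenascin C, Tgfbi and the less abundant thrombospondins were higher in null cells, while Sparc and Sparcl1 were lower there. Thbs1 and Spp1 were higher by less than 2-fold, and Postn and Ecm1 were nearly level. All 10 members reached the minimum FPKM of 1 in at least 1 library. On the scale of log2(FPKM + 1), null over heterozygote, 4 members exceeded 2-fold upward, namely Tnc, Tgfbi, Thbs2 and Thbs3. None exceeded 2-fold downward, and 6 lay within 2-fold. Of the 12773 genes of the table that reached the same minimum, 6.84% passed the mark upward, 6.88% passed it downward and 13.7% passed it in either direction. The median log2 ratio was 0.68 over the members and 0.03 over all genes compared. Among the members 7 had a ratio above 0 and 3 below, and among all genes compared 6630 lay above 0 and 6143 below. The summed FPKM of the 10 genes was 3517 in null cells and 3761 in heterozygous cells. Sparc alone made up 53.5% of the sum in null cells and 70.9% in heterozygous cells.

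**Figure D1:**
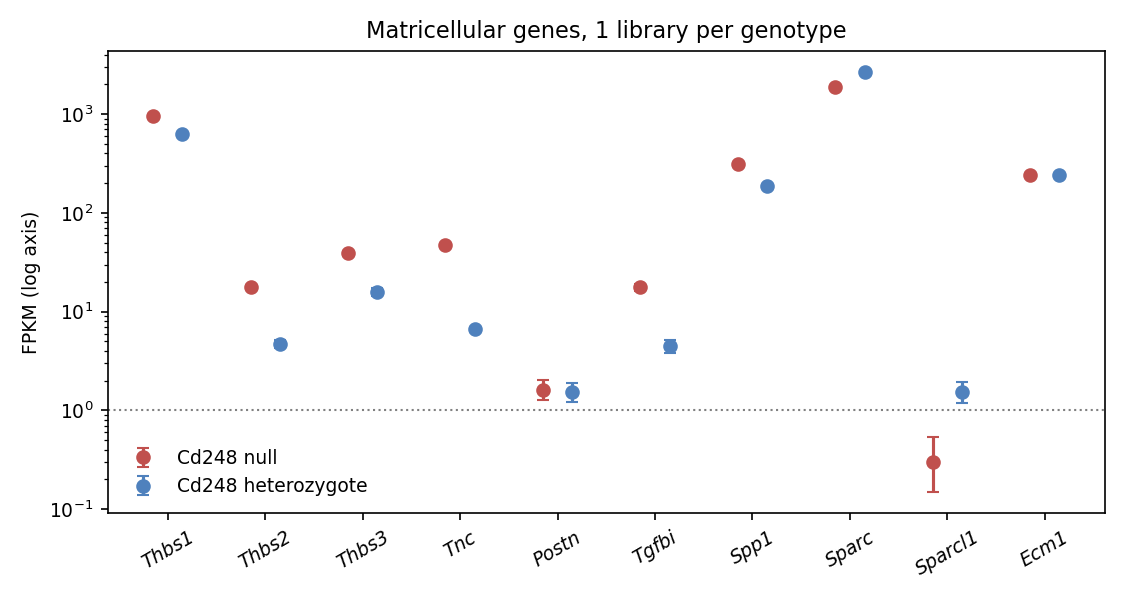
FPKM (log axis) of the 10 matricellular genes in the Cd248 null library (red, left of each pair) and the Cd248 heterozygote library (blue, right), with 95% counting intervals as bars and an FPKM of 1 as the dotted line. Tnc, Thbs2, Thbs3 and Tgfbi stand higher in null cells, Sparcl1 stands lower, and the pairs of Postn and Ecm1 overlap.

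**Figure D2:**
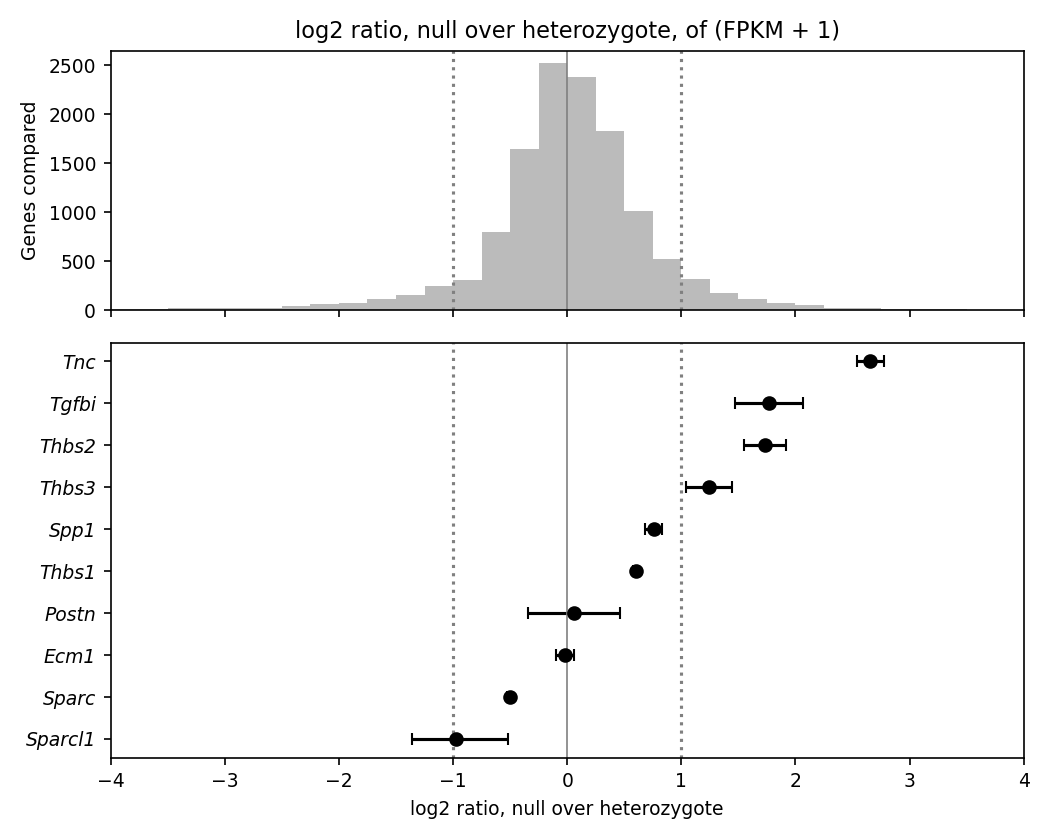
Top, histogram of the log2 ratio of (FPKM + 1), null over heterozygote, for the genes compared, with the axis shown between -4 and 4; bottom, the same ratio for the 10 members, with bars that combine the outer ends of the 2 counting intervals. Dotted lines mark 2-fold, and 4 members lie to the right of the upper line, led by Tnc at 2.65.

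The 4 members past the 2-fold mark are shown with the sequence just before their transcription start. They were picked by that mark alone, which 6.84% of all genes compared passed upward. A shared cause was not tested. The window searched is the 250 bases before the first start that RefSeq lists on GRCm38.p6. Each run is that window, 5′ to 3′ on the gene's own strand, except that for Tgfbi the last 63 bases, which lie inside an annotated GENCODE transcript, are left out. Capitals mark every match, on either strand, to the motif cores TATAAA (bound by the TATA-binding protein), CCAAT (bound by NF-Y), GGGCGG (the GC box of the Sp1 family), TGANTCA (Fos and Jun) and GGAATG (TEAD factors).
Thbs2 (chr17:14694263-14694512, - strand): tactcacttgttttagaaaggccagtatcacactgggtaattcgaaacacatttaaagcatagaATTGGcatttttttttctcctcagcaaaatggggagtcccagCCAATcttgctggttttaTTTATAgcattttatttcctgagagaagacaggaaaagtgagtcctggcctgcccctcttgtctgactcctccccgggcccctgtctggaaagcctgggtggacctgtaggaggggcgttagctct
Thbs3 (chr3:89214930-89215179, + strand): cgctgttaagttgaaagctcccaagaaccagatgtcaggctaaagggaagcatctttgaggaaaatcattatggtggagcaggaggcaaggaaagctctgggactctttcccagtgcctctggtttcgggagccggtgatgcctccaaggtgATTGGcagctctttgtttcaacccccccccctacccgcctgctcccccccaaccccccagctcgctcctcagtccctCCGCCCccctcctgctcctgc
Tnc (chr4:64047016-64047265, - strand): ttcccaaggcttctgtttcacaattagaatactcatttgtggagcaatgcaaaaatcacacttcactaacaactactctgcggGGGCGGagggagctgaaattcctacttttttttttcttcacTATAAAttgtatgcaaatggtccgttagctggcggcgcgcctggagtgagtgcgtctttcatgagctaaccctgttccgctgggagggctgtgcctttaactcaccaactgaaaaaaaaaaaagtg
Tgfbi (chr13:56609336-56609522, + strand): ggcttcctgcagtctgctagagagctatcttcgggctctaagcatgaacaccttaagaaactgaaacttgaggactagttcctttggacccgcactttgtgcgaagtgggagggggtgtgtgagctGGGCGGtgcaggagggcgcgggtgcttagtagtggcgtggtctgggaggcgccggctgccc

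None of the 5 motif cores was present in all 4 windows, and no matches overlapped. The GC box was found in 3 of the 4 (Thbs3, Tnc and Tgfbi), in 4 of the 8 members with a window and in 32.7% of all 32851 promoter windows of this length. The TATA core was found in Thbs2 and Tnc, in each with its first base at position 125 of the window (on the opposite strand in Thbs2), and also in Spp1 and Ecm1, against 12.4% of all windows. CCAAT was found in Thbs2, at positions 65 and 107, in Thbs3, at position 153, and also in Spp1, against 33.8% of all windows. Neither TGANTCA, present in 6.75% of all windows, nor GGAATG, present in 12.6%, was found in any of the 4, while TGANTCA was found in Ecm1. The other 4 members with a window, none past the 2-fold mark, thus held the TATA core as often as the higher ones. Of these, the Sparc window lies inside the gene's GENCODE span, and the Postn window ends well before its GENCODE start. Neither of these windows held any of the 5 cores. Among the 4 higher members, the windows ranged in GC content from 44.8% in Tnc to 62.4% in Tgfbi, with a median of 52.4% over all windows. RefSeq sequence was matched for 8 of the 10 members, and Thbs1 and Sparcl1 had no entry. These matches describe letters in a window and say nothing of binding.

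The thrombospondins were all higher in null cells, by different amounts. Thbs1 (ENSMUSG00000040152, chromosome 2), the trimeric thrombospondin that blocks angiogenesis through CD36 and CD47, had an FPKM of 956 in null cells, from 61553 reads, and 630.2 in heterozygous cells, from 49181 reads. Its ratio was 1.52-fold, with a counting interval of 1.499-fold to 1.535-fold, which is inside the 2-fold mark. Thbs2 (ENSMUSG00000023885, chromosome 17), its closest relative and also an inhibitor of angiogenesis, had 17.8 in null cells, from 1390 reads, and 4.67 in heterozygous cells, from 442 reads. Its ratio was 3.81-fold, with an interval of 3.42-fold to 4.25-fold. Thbs2 was thus the scarcer and Thbs1 the far more abundant of the pair in both libraries.

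Thbs3 (ENSMUSG00000028047, chromosome 3) encodes a pentameric thrombospondin without the type 1 repeats that carry the anti-angiogenic activity of the other two. It had an FPKM of 38.9 in null cells, from 1052 reads, and 15.9 in heterozygous cells, from 521 reads, a ratio of 2.45-fold with an interval of 2.201-fold to 2.72-fold. Its exons share 318 bases with Mtx1 on the opposite strand, and no source used here gives the strand setting of the counting, so reads in that stretch cannot be assigned to either gene. Mtx1 itself had 23.7 in null cells, from 351 reads, and 27.2 in heterozygous cells, from 488 reads. The part of Mtx1 reads in the Thbs3 values was not tested. Measured per longest annotated transcript, Thbs1 supplied 95.5% of the summed level of the 3 genes in null cells and 97.6% in heterozygous cells. Thbs2 supplied 2.14% in null cells and 0.870% in heterozygous cells.

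Tnc differed most of the 10 genes. It encodes tenascin C, a large hexameric glycoprotein of embryonic, wounded and tumour tissue that loosens the adhesion of cells to fibronectin. Tnc (ENSMUSG00000028364, chromosome 4) had an FPKM of 47.1 in null cells, from 5579 reads, and 6.63 in heterozygous cells, from 953 reads. The ratio was 7.10-fold, with a counting interval of 6.62-fold to 7.61-fold, and 99.3% of genes compared had a lower log2 ratio. An opposite-strand transcript, 8030451A03Rik, shares 176 exon bases with Tnc and had 11 reads in null cells and 2 in heterozygous cells. The genes nearest to Tnc in their pair of log2 levels over the 2 libraries were Shc2 (50.6 in null and 5.96 in heterozygous cells), the oncostatin M receptor gene Osmr (54.1 in null and 6.41 in heterozygous cells) and Rasl11a (42.8 in null and 7.70 in heterozygous cells). The distances were 0.17, 0.20 and 0.23 on the log2(FPKM + 1) scale, a likeness over 2 points only.

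The FAS1-domain genes differed from each other. Tgfbi (ENSMUSG00000035493, chromosome 13), named for its induction by TGF-beta and known as a collagen and integrin ligand, had an FPKM of 17.6 in null cells, from 546 reads, and 4.46 in heterozygous cells, from 168 reads. The ratio was 3.94-fold, with an interval of 3.31-fold to 4.71-fold. Postn (ENSMUSG00000027750, chromosome 3), which encodes periostin, a marker of activated fibroblasts that helps collagen fibrils form, was near the lower limit of the genes compared. It had 1.62 in null cells, from 73 reads, and 1.52 in heterozygous cells, from 83 reads. The counting interval of its ratio, 0.768-fold to 1.48-fold, includes equality, so a difference smaller than that was not detectable at this depth.

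Spp1 (ENSMUSG00000029304, chromosome 5) encodes osteopontin, a secreted phosphoprotein that binds integrins and CD44. It had an FPKM of 316 in null cells, from 6643 reads, and 186 in heterozygous cells, from 4752 reads. The ratio of 1.69-fold, with an interval of 1.63-fold to 1.76-fold, lay within the 2-fold mark. A same-strand transcript, Gm42793, shares 309 exon bases with Spp1 and had 8 reads in null cells and 2 in heterozygous cells. Ecm1 (ENSMUSG00000028108, chromosome 3), a glycoprotein that binds perlecan and matrix metalloproteases, was nearly the same in both libraries. It had 239 in null cells, from 4534 reads, and 242 in heterozygous cells, from 5565 reads, and the interval of its ratio ran from 0.949-fold to 1.03-fold. With columns scaled to an equal sum, its log2 ratio changed sign, to 0.07 against -0.02 as deposited.

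The SPARC pair was lower in null cells. Sparc (ENSMUSG00000018593, chromosome 11), a calcium- and collagen-binding glycoprotein that assists collagen deposition, was the most abundant member in both libraries. It had an FPKM of 1882 in null cells, from 47782 reads, and 2667 in heterozygous cells, from 82075 reads. The null value was 70.6% of the heterozygote value, a ratio of 0.706-fold with an interval of 0.698-fold to 0.714-fold, and 99.8% of genes compared had a lower FPKM in null cells and 99.9% in heterozygous cells. Sparcl1 (ENSMUSG00000029309, chromosome 5), a SPARC relative also known as hevin, was close to undetected in null cells. It had 0.298 there, from 11 reads, and 1.54 in heterozygous cells, from 69 reads.

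Sparcl1 was 5.18-fold lower by FPKM, with a counting interval of 2.72-fold to 10.8-fold, but its log2 ratio after adding the pseudocount of 1 was -0.97, just inside the 2-fold mark. By library-scaled reads without a pseudocount it was past the mark downward. So were 8.3% of the 12520 genes compared that also had 10 reads or more in a library. The value on the log2(FPKM + 1) scale understates the difference of a gene this low.

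The order of the members by level depends on the transcript length that reads are divided by. The length recovered from the deposited values followed the mean length of a gene's annotated transcripts, which counts short fragments equally with full transcripts. The deposited values therefore exceeded those per longest annotated transcript by 1.19-fold for Tnc and by up to 2.95-fold for Thbs3, which has 11 annotated transcripts. Ratios between the libraries without a pseudocount do not change with this choice.

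Per longest transcript, Sparc came first in both libraries, at an FPKM of 1050 in null cells and 1488 in heterozygous cells. It was followed by Thbs1 (532 in null and 351 in heterozygous cells), Spp1 (223 in null and 131 in heterozygous cells), Ecm1 (121 in null and 122 in heterozygous cells) and Tnc (39.7 in null and 5.59 in heterozygous cells). Thbs3 (13.2 in null and 5.39 in heterozygous cells), Thbs2 (11.9 in null and 3.13 in heterozygous cells) and Tgfbi (9.19 in null and 2.33 in heterozygous cells) came next. Postn and Sparcl1 were last in both, with Postn above Sparcl1 in null cells (0.706 for Postn, 0.202 for Sparcl1) and below it in heterozygous cells (0.663 for Postn, 1.04 for Sparcl1). The counting intervals of neighbours overlapped for Thbs3 and Thbs2 in null cells and for Tnc and Thbs3 and for Sparcl1 and Postn in heterozygous cells. On the deposited scale the heterozygote library instead placed Ecm1 above Spp1 and Thbs3 above Tnc.

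**Figure D3:**
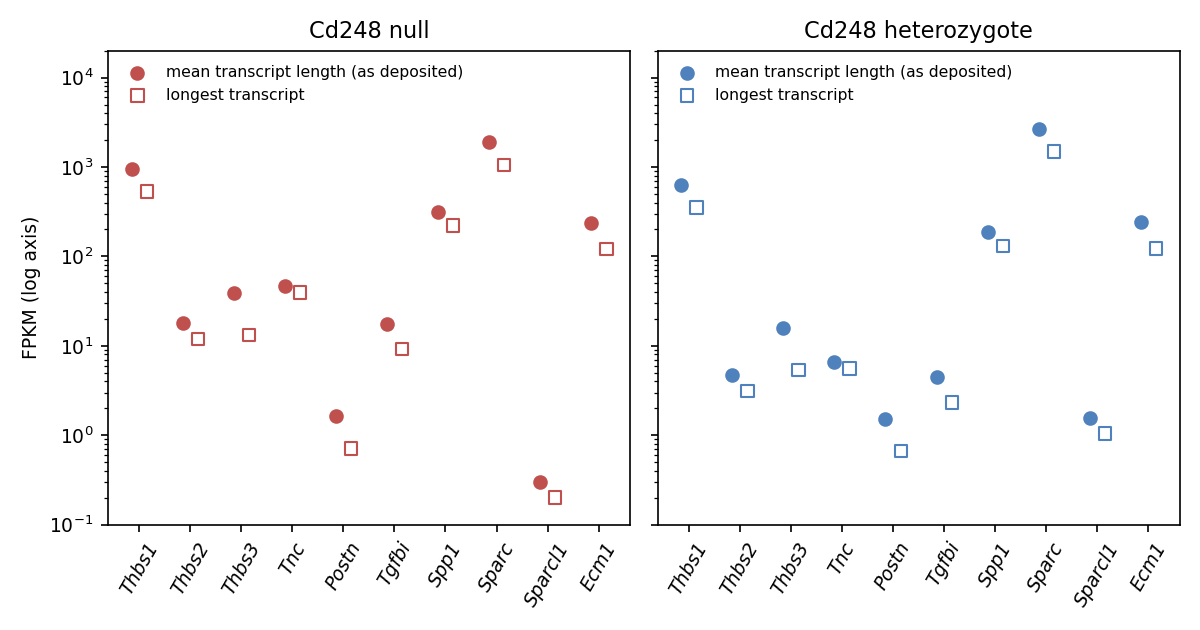
FPKM (log axis) of the 10 members as deposited (filled circles, mean transcript length) and recomputed from the recovered reads per longest annotated transcript (open squares), for the Cd248 null library (left panel) and the Cd248 heterozygote library (right panel). Thbs3 shows the widest gap between the lengths, with 38.9 as deposited and 13.2 per longest transcript in null cells, and Tnc the narrowest, with 47.1 as deposited and 39.7 per longest transcript in null cells.

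Most structural relatives of the members were below an FPKM of 1 in both libraries. Of 17 genes in the same protein families, 4 reached an FPKM of 1 in a library. The thrombospondin Comp, a cartilage protein, had 6 reads in null cells and 10 in heterozygous cells, and Thbs4 was listed at 0 in both. Tnxb, a tenascin of connective tissue, had an FPKM of 2.67 in null cells and 1.53 in heterozygous cells. Of the bone-type relatives of osteopontin (Ibsp, Dmp1, Mepe and Dspp), none had more than 1 read in either library.

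In the wider SPARC family, Smoc1, a modular calcium-binding protein of basement membranes, had 1889 reads in null cells and 8 in heterozygous cells, 286-fold higher by FPKM with a counting interval of 145-fold to 664-fold. Spock2, a testican proteoglycan gene, had an FPKM of 0.175 in null cells and 4.61 in heterozygous cells. Fstl1, the most abundant of this list, had 489 in null cells and 397 in heterozygous cells. Stab1, a FAS1-domain scavenger receptor that takes up SPARC, had 30 reads in null cells and 5 in heterozygous cells.

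Receptors of the matricellular proteins were counted in the same way. Of 19 genes listed, 16 were compared: 1 passed the mark upward in null cells, 2 passed it downward and 13 did neither, with a median log2 ratio of -0.15, and 13.7% of all genes compared passed it in either direction. With a pseudocount of 5, 1 was lower. The higher one was Calr, which encodes calreticulin, an endoplasmic reticulum chaperone that also serves at the cell surface as a thrombospondin partner, at an FPKM of 2938 in null cells and 1231 in heterozygous cells. The lower ones were the integrin subunits Itga3 (11.1 in null and 102 in heterozygous cells) and Itga8 (0.0955 in null and 2.17 in heterozygous cells), the second of which binds osteopontin and tenascin C. Cd47 stood at 30.3 in null cells and 29.2 in heterozygous cells. Cd36, the other anti-angiogenic thrombospondin receptor, was listed at 0 in both.

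In the list of TGF-beta activation and response, more genes passed the mark downward than upward. Of 16 genes, all compared, 4 were past 2-fold lower in null cells, 1 was past 2-fold higher and 11 were inside the mark, with a median log2 ratio of -0.15. Over all genes compared, 6.88% passed the mark downward and 6.84% upward. Tgfbr3, the coreceptor betaglycan, was higher, at an FPKM of 54.1 in null cells and 23.3 in heterozygous cells. The lower members included the ligand gene Tgfb2 (0.470 in null and 7.25 in heterozygous cells) and the genes of the latent TGF-beta binding proteins Ltbp2 (14.7 in null and 72.6 in heterozygous cells) and Ltbp4 (7.35 in null and 35.9 in heterozygous cells).

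Proteases known to cleave matricellular proteins were higher in null cells or within 2-fold. Of 14 genes, 9 were compared: 4 passed the mark upward, none passed it downward and 5 were inside it, with a median log2 ratio of 0.74. Of all genes compared, 6.84% passed the mark upward and 6.88% downward. With a pseudocount of 5 the count of proteases upward was 2. Ctsk, the collagen-degrading cathepsin K, had an FPKM of 38.0 in null cells and 10.6 in heterozygous cells. The gelatinase gene Mmp2 had 140 in null cells and 42.0 in heterozygous cells, and Adamts4, which cleaves the Sparcl1 protein, had 6.64 in null cells and 1.86 in heterozygous cells. Mmp14 had the highest mean level of the list, at 574 in null cells and 443 in heterozygous cells.

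Among structural matrix genes that these proteins bind, 4 of 16 passed the mark upward in null cells, 3 passed it downward (1 with a pseudocount of 5) and 9 were inside it, with a median log2 ratio of 0.50. Over all genes compared, 6.84% passed the mark upward and 6.88% downward. The largest difference upward among these matrix genes was in Fn1, which encodes fibronectin, the substrate to which tenascin C binds. Fn1 had an FPKM of 1115 in null cells and 192 in heterozygous cells, a ratio of 5.82-fold. The collagen genes Col3a1 (435 in null and 187 in heterozygous cells) and Col6a3 (12.4 in null and 5.09 in heterozygous cells) were higher as well. The proteoglycan gene Dcn (20.8 in null and 117 in heterozygous cells), Fbln1 (3.18 in null and 10.6 in heterozygous cells) and Col4a1 (157 in null and 318 in heterozygous cells) were lower. Col1a1 had the highest mean level, at 2779 in null cells and 2024 in heterozygous cells.

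Of 11 transcription factors with reported action on these genes, 1 was past 2-fold higher and none lower, with a median log2 ratio of 0.16, and 13.7% of all genes compared passed the mark in either direction. The higher one was Prrx1, a mesenchymal homeobox gene reported to activate Tnc, at an FPKM of 121 in null cells and 33.2 in heterozygous cells. Trp53, reported to activate Thbs1, had the highest mean level of the list, at 108 in null cells and 142 in heterozygous cells.

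**Figure D4:**
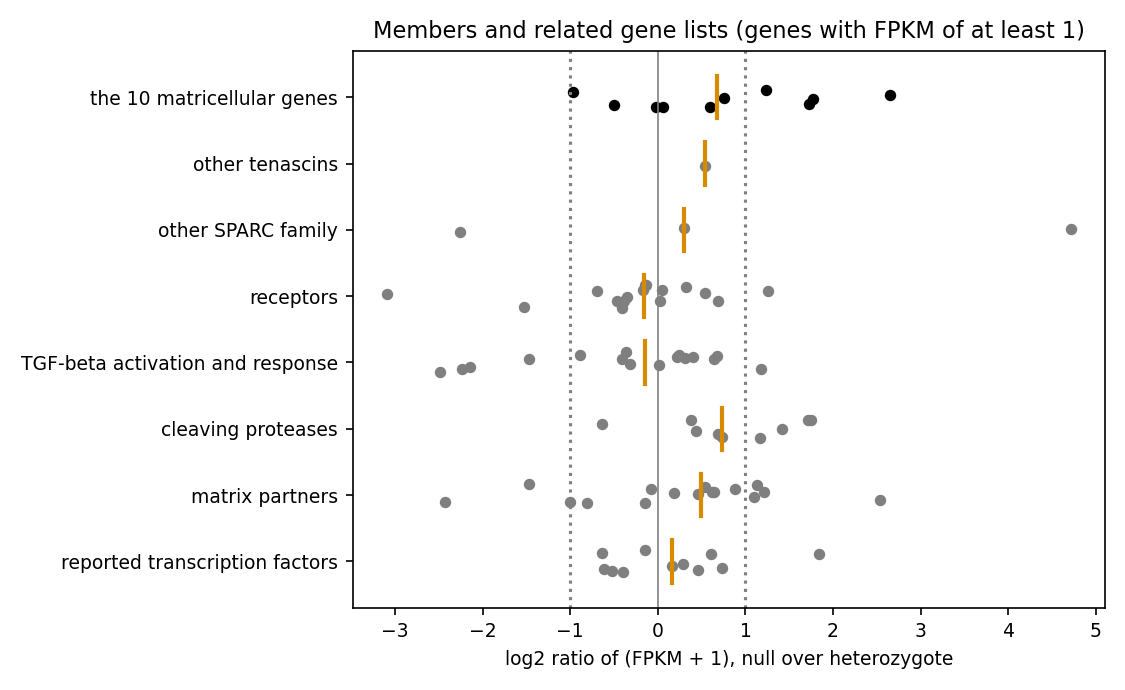
log2 ratio of (FPKM + 1), null over heterozygote, of the 10 matricellular genes (black) and of the related genes compared (grey, 1 point per gene, spread vertically for legibility), with the median of each list as an orange bar and 2-fold as dotted lines. The members and the proteases have medians of 0.68 and 0.74, and the receptors and the TGF-beta genes have medians of -0.15 each.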

How the data were processed

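The authors deposited 1 table of FPKM for 52636 Ensembl gene IDs, each library filling 1 column. According to the submitters' processing notes, Bowtie2 (2.2.3) and the build mm8 were used. The sources used here do not name the counting tool, its strand setting or the annotation. Per the labels' protocols, total RNA was made into libraries with the Illumina TruSeq RNA kit. IDs were matched to GENCODE M21 (GRCm38), which gave 52403 symbols. For the 73 symbols with several rows, the row with the highest mean FPKM was used. GENCODE served for names, chromosomes and transcript lengths, and RefSeq for promoter windows.

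Whole reads were recovered from the FPKM values. The commonest step among genes with 1 annotated transcript gave each library's total. Every gene's pair of values was then written as whole reads over a whole length. This succeeded for 99.996% of 23043 genes above 0, within a relative tolerance of 1e-12. The smallest such length was replaced by its multiple nearest the mean annotated transcript length. After this step, 90.3% of the 19890 genes with a smallest length of at least 500 bases lay within 2% of that mean. Part of this closeness therefore follows from the choice of multiple. The recovered reads summed to 100.4% of the total in null cells and 100.3% in heterozygous cells. Whether a read stands for 1 read or a read pair is not stated in those sources.

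The measure was the log2 ratio, null over heterozygote, of FPKM plus a pseudocount of 1, for genes reaching an FPKM of 1 in a library. A 2-fold mark was used. Poisson intervals for levels and Clopper-Pearson intervals for ratios are exact at 95%. Python 3.11.15, numpy 2.4.6, pandas 2.3.3 and scipy 1.17.1 were used, and the code was tested on simulated data. Named genes were all members and, per related list, up to 3 per direction past 2-fold and the gene with the highest mean FPKM. One gene that this rule names is not reported here. Other genes are named to describe cell type markers, overlaps and genes at 0, after their values were seen. The members and the 10 related lists were chosen with earlier results of these data known. The alternatives were 7 planned and 2 added after seeing the data.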

Additional observations from a re-analysis of the deposited data

How the results depend on the processing

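In all 9 alternatives the same 4 members, Tnc, Tgfbi, Thbs2 and Thbs3, passed the 2-fold mark upward in null cells. The count of members at least 2-fold lower, 0 as reported, was 1 with a pseudocount of 0.1 and 1 by library-scaled reads without a pseudocount, in both cases Sparcl1, with log2 ratios of -2.05 and -2.37. The median log2 ratio of the members, 0.68 as reported, was 0.999 with an FPKM of at least 5 in a library, which leaves 8 members, 0.77 with columns scaled to an equal sum, 0.62 with upper quartile scaling and 0.76 per longest annotated transcript, which leaves 9. The sign of Ecm1 turned with columns scaled to an equal sum, to 0.07. Of 180 counts for the related lists, 173 stayed within 1.5 times. Many of the 180 were 0 as reported, so this share says little about stability. The relatives of the thrombospondins, of osteopontin and of the FAS1-domain members had no gene compared and could hardly move. The 7 that moved were, with a pseudocount of 5, proteases higher (2), matrix genes lower (1), receptors lower (1) and wider SPARC family lower (0); with an FPKM of at least 5 in a library, receptors lower (1) and wider SPARC family lower (0); and per longest transcript, receptors lower (1). The count of all genes at least 2-fold apart depended on the pseudocount: it was 874 higher and 879 lower with 1, 400 higher and 369 lower with 5, 1306 higher and 1090 lower with 0.1, and 1339 higher and 1119 lower by library-scaled reads without one. No replicate could be left out and no paired analysis was possible because each genotype had 1 library. Depth limits Postn and Sparcl1, which had at most 83 reads in a library.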

Other observations

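Several genes of the related lists differed widely between the 2 libraries. Smoc1 had an FPKM of 27.8 in null cells and 0.0970 in heterozygous cells, and Itga3 was 9.22-fold lower in null cells, with 596 reads there and 6663 in heterozygous cells. Spock3, a further testican gene, had 0 reads in null cells and 40 in heterozygous cells. The basement membrane collagen pair Col4a1 and Col4a2 lay together, with an FPKM of 157 for Col4a1 and 109 for Col4a2 in null cells and of 318 for Col4a1 and 191 for Col4a2 in heterozygous cells, while the fibrillar collagen gene Col1a2 stood at 1832 in null cells and 853 in heterozygous cells.

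The TGF-beta ligand genes differed among themselves. Tgfb1 had an FPKM of 32.6 in null cells and 32.2 in heterozygous cells, whereas Tgfb3 had 6.02 in null cells and 18.5 in heterozygous cells. The feedback inhibitor gene Smad7 stood at 40.0 in null cells and 74.7 in heterozygous cells, within 2-fold. These genes were picked after their values were seen, and none of the differences has a replicate check.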
